A study of Mus musculus with 6 samples.

Results

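Potassium channels are membrane proteins whose pore lets potassium pass and holds back sodium, so that potassium leaving the cell makes the inside more negative. Inward rectifiers and tandem-pore channels set the resting voltage, voltage-gated channels open when the cell depolarizes, and calcium-activated channels open when calcium rises. In non-excitable cells such as melanocytes these channels also bear on cell volume, calcium entry and the cell cycle. The genes described here are those whose symbol in the platform's annotation starts with Kcn, which covers pore-forming subunits, auxiliary subunits and 3 non-coding RNAs, and 92 such genes were tested among 19939 in all. They had 95 probe sets, and for the 3 genes with more than 1 probe set (Kcna2, Kcnh8 and Kcnma1) 1 was chosen by its level, the highest 6-array mean. Membership itself was selected on the symbol, and the family was picked for description with the fall of Kcnj13 already known. All 92 genes were matched to RefSeq genes of assembly GRCm38.p6 by gene number.

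RNA came from Melan-Ink4a, a line of C57BL/6J skin melanocytes that is null for Ink4a-ARF1, a tumour suppressor locus whose loss lets the cells divide indefinitely. The 3 NRG1 samples were kept with 10 nM NRG1-b1, a form of the growth factor neuregulin 1 that signals through ERBB3, for 21 days, and the 3 untreated samples were not. The labels repeat the NRG1 treatment text under all 6 samples, and titles and source names separate the groups. All 6 samples lacked Ink4a-ARF1 and grew in medium with 200 nM TPA, a phorbol ester that activates protein kinase C, and 200 pM cholera toxin, which raises cyclic AMP. The labels do not say whether the 3 samples of a group were separate cultures, so the p-values reflect sample-to-sample spread that could be technical alone. Both groups are 1 immortal line, and levels are deposited log2 values from Affymetrix Mouse Gene 1.0 ST arrays.

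With NRG1 the inward rectifier gene Kcnj13 fell 6.06-fold, the largest change among the 92 genes, and most of the other channel genes differed little. Of the 92 genes, 5 rose and 6 fell (limma, adjusted p under 0.05 over all 19939 genes), which is 12% of them beside 20.9% of all genes. The shares over all genes were 12.3% for rises and 8.56% for falls. The rises were Kcnk5, Kcnn4, Kcna6, Kcnab2 and Kcnmb4, and the falls were Kcnj13, Kcnma1, Kcnc2, Kcna2, Kcnd1 and Kcna3. At an unadjusted p under 0.05 there were 15, beside 32% of all genes. The groups did not overlap for 15 genes, or 16.3%, beside 36.7% of all genes. A called change of at least 0.5 on the log2 scale was found for 3 members (Kcnj13, Kcnk5 and Kcnma1), beside 6.26% of all genes. The count of 11 became 6 without untreated replicate 1. The falls numbered 2 without NRG1 replicate 1, without untreated replicate 1 or without untreated replicate 3. Over all genes 59% of the calls were rises, against 48.5% after quantile normalization over the tested genes, where 6 members rose and 6 fell.

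**Figure D1:**
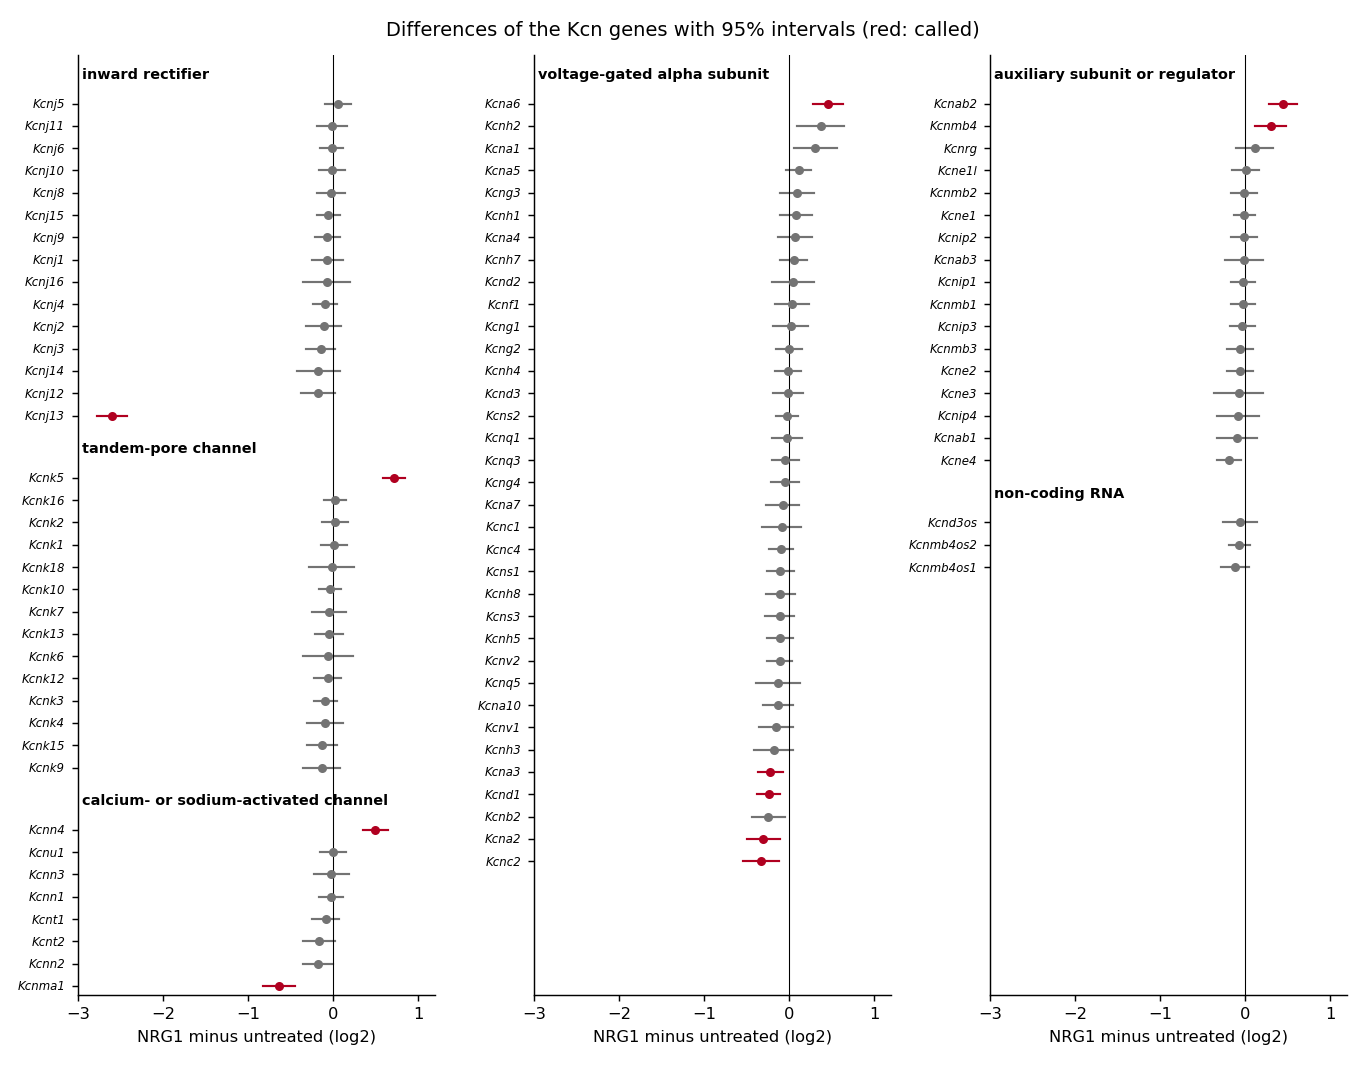
Difference of each of the 92 genes, NRG1 minus untreated on the log2 scale, as a point with its 95% interval from the limma fit, in 6 structural classes. Red marks the 11 called genes; Kcnj13 lies at -2.60 and the other members lie between -0.63 and 0.72.

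Many members were dim on these arrays. As a rough gauge of dimness (probe sets differ in how brightly they bind), the 95th percentile of the 6-array mean over 1027 olfactory receptor genes, which most tissues outside the nose use little, was 6.72 on the log2 scale. The 6-array mean was at or below it for 53 of the 92 members and above it for 39. Of the 39, 9 were called (23.1%, beside 30.2% of all genes above the gauge), and of the 53, 2 were called (3.77%, beside 7.18% of all genes at or below it). The 2 were Kcnma1 and Kcnc2. Array signals are compressed near background, so differences of the dim members can be understated. Uncalled members named below that were at or below the gauge are Kcnj2, Kcnk9, Kcnn2, Kcnn3, Kcnt2, Kcnmb1, Kcnmb2, Kcna5 and Kcnb2. The same holds for Kcnd2, Kcnd3, Kcnip1 to Kcnip4, Kcnq3, Kcnab1, Kcnab3 and Kcne4. For these a small difference does not show that an expressed gene kept its level. The 95% interval of the difference lay within 0.5 either way on the log2 scale for 79 of the 81 members that were not called. The 2 others were Kcnh2 and Kcna1, whose intervals reached 0.65 and 0.56.

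The differences of the 92 members leaned below 0, with 69 of them (75%) below it beside 58.3% of all genes, and a median of -0.052 on the log2 scale beside -0.029. This lean moved with the scaling: 54 members (58.7%, beside 51.9%) were below 0 after quantile normalization, 56 (60.9%, beside 51.3%) with arrays centred on their medians, and 60 (65.2%, beside 58.2%) after quantile normalization over the tested genes only. The sign of a difference close to 0 is therefore not fixed by these data.

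**Figure D2:**
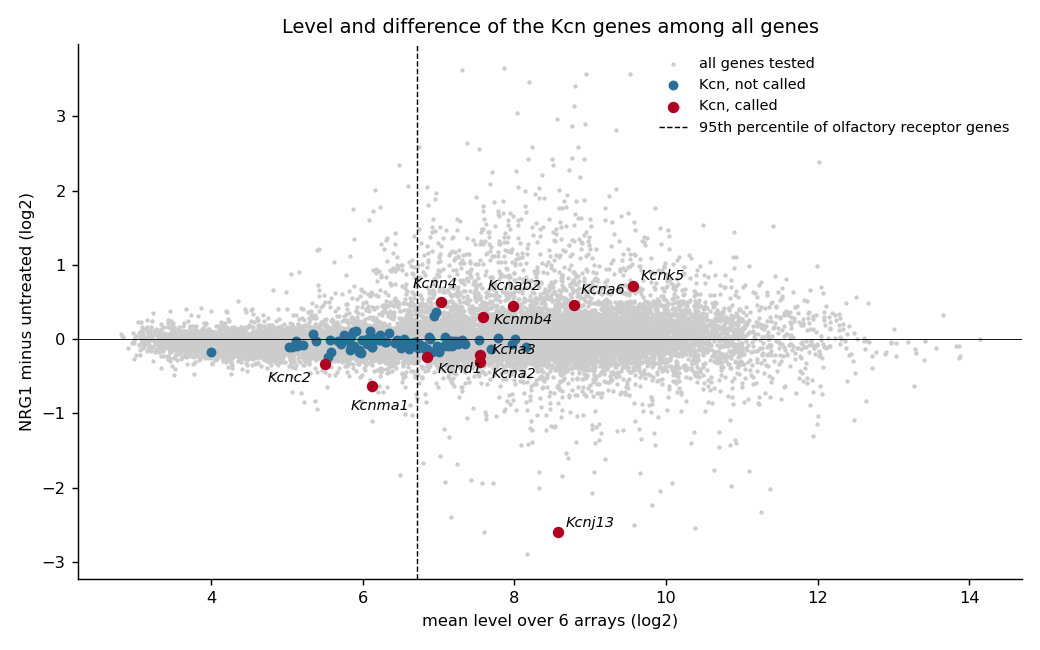
Difference (NRG1 minus untreated, log2) against the mean level over 6 arrays (log2) for all 19939 genes in grey, with uncalled Kcn genes in blue and called ones in red. The dashed line marks 6.72, the 95th percentile of the olfactory receptor genes, and Kcnma1 and Kcnc2 are the 2 called members to its left.

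The 250 bases before the RefSeq start sites (GRCm38.p6) are shown for Kcnj13, which fell most, and for Kcnk5 and Kcnn4, the members with the largest rises. Of the 11 called genes, 10 had an entry, with 15 start sites in all. On both strands 6 motifs were searched: CACGTG and CATGTG, which are E-boxes of the kind MITF binds, TGANTCA (AP-1), CCGGAA (ETS), GTAAACA (FOXO) and TGACGTCA (cyclic AMP response element). The capitals mark a match.
Kcnj13 (chr1:87394730-87394979, minus strand): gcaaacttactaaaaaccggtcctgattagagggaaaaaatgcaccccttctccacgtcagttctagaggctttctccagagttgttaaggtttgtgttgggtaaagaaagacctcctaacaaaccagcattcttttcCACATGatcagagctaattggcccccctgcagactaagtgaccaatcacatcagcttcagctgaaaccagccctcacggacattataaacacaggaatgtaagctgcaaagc
Kcnk5 (chr14:20181783-20182032, minus strand): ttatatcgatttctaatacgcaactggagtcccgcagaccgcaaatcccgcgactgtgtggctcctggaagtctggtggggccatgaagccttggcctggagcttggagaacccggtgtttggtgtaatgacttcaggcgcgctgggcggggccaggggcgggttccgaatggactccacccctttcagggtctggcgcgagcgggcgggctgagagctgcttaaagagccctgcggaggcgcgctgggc
Kcnn4 (chr7:24370013-24370262, plus strand): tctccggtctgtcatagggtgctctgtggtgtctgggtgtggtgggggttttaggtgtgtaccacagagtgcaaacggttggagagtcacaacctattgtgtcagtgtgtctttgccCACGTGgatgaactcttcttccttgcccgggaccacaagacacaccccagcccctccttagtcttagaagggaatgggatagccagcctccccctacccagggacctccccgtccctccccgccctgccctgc
The Kcnj13 sequence held CATGTG (read as CACATG) 112 bases before the start, and the Kcnn4 sequence held CACGTG 133 bases before it. These were the only matches among the 15 start sites of called members. CATGTG was present in 12.3% and CACGTG in 6.02% of all 32851 promoters of the same length. Among the 95 start sites of 70 members with an entry, 2 held CATGTG and 6 held CACGTG. The other motifs were present in 6.75% (TGANTCA), 12% (CCGGAA), 3.17% (GTAAACA) and 1.55% (TGACGTCA) of all promoters and in 4, 6, 0 and 0 of the 95. The Kcnj13 sequence was 45.2% G and C, and the Kcnk5 and Kcnn4 sequences 62.8% and 58.8%, against a median of 52.4% over all promoters. A match describes the letters only.

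Among the 15 inward rectifiers, Kcnj13 fell and 14 were not called. Kcnj13 encodes Kir7.1, a channel of low conductance known from the retinal pigment epithelium, and mutations of the zebrafish gene change the skin's pigment stripes. Its levels were 7.11, 7.39 and 7.34 on the log2 scale with NRG1 and 9.81, 9.93 and 9.90 without. All 3 NRG1 values lay far below the untreated ones, with a gap many times the spread within a group. The means were 7.28 ± 0.146 with NRG1 and 9.88 ± 0.064 without (SD, n = 3 each). The difference was -2.60 ± 0.080 (SE; limma, adjusted p = 1.61e-08), with a 95% interval from -2.78 to -2.42. By RefSeq, Kcnj13 overlaps Gigyf2, a gene for a translation regulator, which fell by 0.23 (limma, adjusted p = 0.0165). Snorc, the next tested gene, was at -0.19 (limma, adjusted p = 0.176).

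The 14 uncalled inward rectifiers differed by -0.18 to 0.054 on the log2 scale. They include the ATP-sensitive channel genes Kcnj8 (-0.021) and Kcnj11 (-0.012), the strong rectifier gene Kcnj2 (-0.11) and the glial channel gene Kcnj10 (-0.015). Kcnj14 was called only without NRG1 replicate 2 (-0.31; limma, adjusted p = 0.0352), against -0.17 in all 6 arrays and -0.056 without NRG1 replicate 1 (adjusted p = 0.802).

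Kcnj13 fell in cells in which 7 of 8 melanocyte markers also fell. Those falls were uneven, from -0.23 (Dct) to -1.09 (Mlana) on the log2 scale. The exception was Sox10, at 0.056 (limma, adjusted p = 0.565), whose NRG1 values all lay above the untreated ones. The mean level of the 8 ran from 12.18 to 12.20 on the NRG1 arrays and from 12.65 to 12.66 on the untreated ones. The 6-array mean of all 8 was above the dimness gauge. Of 6 markers of the retinal pigment epithelium, 1 rose (Rlbp1, 0.83), 1 fell (Rpe65, -0.95) and 5, Rpe65 among them, were at or below the gauge. The mean of that list ran from 5.89 to 6.07 with NRG1 and from 6.04 to 6.08 without. The part of these shifts in the Kcnj13 result was not tested, and in bulk RNA fewer cells of a type and less RNA per cell cannot be told apart.

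Among the 14 tandem-pore channels, whose subunits each carry a pair of pore loops, Kcnk5 rose and 13 were not called. Kcnk5 encodes TASK-2, a channel opened by alkaline conditions outside the cell and linked to volume control. It was at 9.96, 9.94 and 9.89 on the log2 scale with NRG1 and at 9.20, 9.22 and 9.21 without. The replicates lay close together, and the groups did not overlap. The rise was 0.72 ± 0.057 (SE), or 1.65-fold (limma, adjusted p = 9.51e-06; n = 3 each). Kcnk16, which follows Kcnk5 among the tested genes of chromosome 14, was at 0.025 (limma, adjusted p = 0.821). Saysd1, on the other side, fell by 0.26. The 13 uncalled members differed by -0.13 to 0.025 and include the mechanically gated channel gene Kcnk2 (0.024) and the acid-sensitive channel genes Kcnk3 (-0.088) and Kcnk9 (-0.13).

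Of the 8 calcium- or sodium-activated channels, Kcnn4 rose, Kcnma1 fell and 6 were not called. Kcnn4 encodes KCa3.1, an intermediate-conductance channel opened by calcium through calmodulin and known from activated lymphocytes and red cells. It was at 7.24, 7.38 and 7.24 on the log2 scale with NRG1 and at 6.76, 6.76 and 6.86 without. The lowest NRG1 value was above the highest untreated one. The rise was 0.50 ± 0.066 (SE), or 1.41-fold (limma, adjusted p = 0.000371), from untreated values just above the dimness gauge of 6.72. The small-conductance relatives Kcnn1 (-0.021), Kcnn2 (-0.17) and Kcnn3 (-0.019) were not called. Kcnt2, a sodium-activated channel gene, passed only with array weights (limma, adjusted p = 0.0265), and Kcnn2 passed only without NRG1 replicate 3 (-0.26, limma adjusted p = 0.0379). Both were dim, with 6-array means of 4.01 for Kcnt2 and 5.58 for Kcnn2.

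Kcnma1 encodes the pore of BK, the large-conductance channel opened by voltage and calcium. It was at 5.72, 5.97 and 5.73 on the log2 scale with NRG1 and at 6.35, 6.56 and 6.41 without, so that all values were under the dimness gauge. The groups did not overlap. The fall was 0.63 on the log2 scale with an SE of 0.084, or 1.55-fold (limma, adjusted p = 0.000359). Its other probe set was at 0.13 ± 0.119 (SE; limma, adjusted p = 0.563 over all probe sets), so the fall was seen in only 1 of the 2 probe sets. That other probe set was dimmer still, with a 6-array mean of 4.81, so it cannot decide whether the fall holds. The average of the 2 probe sets fell by 0.25 (limma, adjusted p = 0.0211). The BK beta subunit gene Kcnmb4, whose product slows BK gating in neurons, rose, from 7.30, 7.50 and 7.51 without NRG1 to 7.85, 7.72 and 7.63 with it. The rise was 0.30 ± 0.08 (SE; limma, adjusted p = 0.0252). That call ended without NRG1 replicate 1 (adjusted p = 0.0967), without NRG1 replicate 2 (0.0595), without untreated replicate 1 (0.106) and when every probe set was tested (0.0718); 17 alternatives gave adjusted p from 0.00342 to 0.106. The beta subunit genes Kcnmb1 (-0.026), Kcnmb2 (-0.012) and Kcnmb3 (-0.061) were not called. The antisense genes Kcnmb4os1 (-0.12; limma, adjusted p = 0.299) and Kcnmb4os2 (-0.072), which overlap Kcnmb4, were not called either. Whether the probes tell the strands apart was not checked here. The third non-coding member, Kcnd3os, was at -0.066.

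**Figure D3:**
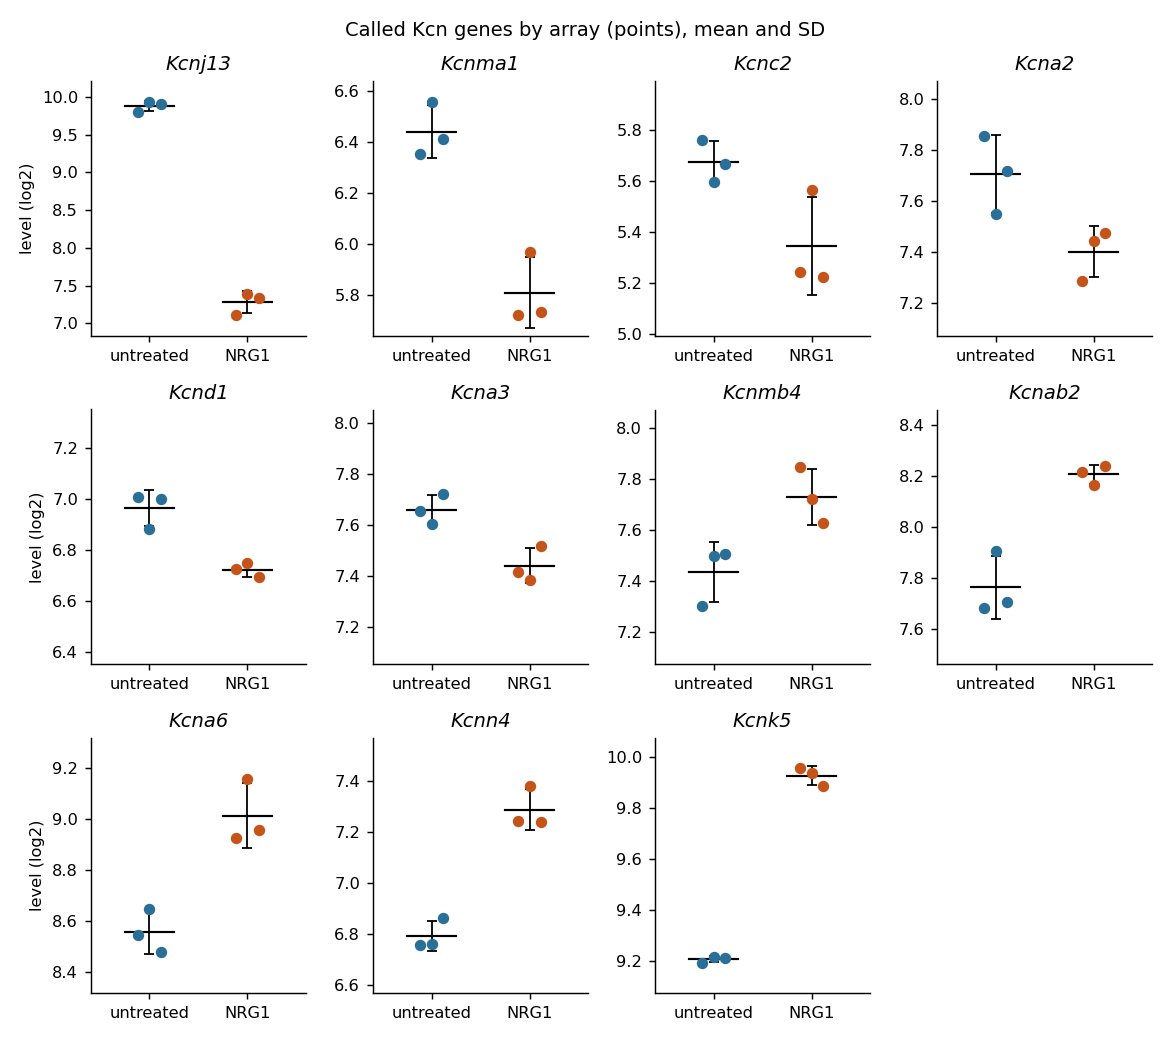
Level (log2) of the 11 called genes on each array, with untreated samples in blue and NRG1 samples in orange; horizontal lines are group means and bars are SD (n = 3 each). Each panel has its own axis, which does not start at 0, and in all 11 the groups do not overlap.

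The 35 voltage-gated subunits gave 1 rise, 4 falls and 30 genes that were not called. In the Kv1 family, of which 8 members were tested, Kcna6 rose and Kcna2 and Kcna3 fell. Kcna6, the Kv1.6 gene, was at 8.93, 9.16 and 8.96 on the log2 scale with NRG1 and at 8.54, 8.65 and 8.48 without. The groups did not overlap, and the rise was 0.46 ± 0.078 (SE), or 1.37-fold (limma, adjusted p = 0.00197). By RefSeq order Kcna5, Kcna1 and Kcna6 are consecutive tested genes on chromosome 6. Kcna1, the Kv1.1 gene, was at 0.31 (limma, adjusted p = 0.0859) and Kcna5 at 0.11 (adjusted p = 0.3), both not called. Ndufa9, on the other side of Kcna6, rose by 0.25 (limma, adjusted p = 0.0156). Kcna1 passed under 5 of 16 alternatives, among them the fit without NRG1 replicate 1 (0.40, limma adjusted p = 0.0353). Without NRG1 replicate 2 its difference was 0.16 (limma, adjusted p = 0.183), and its NRG1 replicate 2 value of 7.41 stood above the other 2 (6.91 and 6.98).

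Kcna2, the Kv1.2 gene of axons, was at 7.29, 7.44 and 7.47 on the log2 scale with NRG1 and at 7.85, 7.55 and 7.72 without. The fall was 0.31 on the log2 scale with an SE of 0.087 (limma, adjusted p = 0.0304), and the nearest values of the groups were 7.47 and 7.55. The call ended without NRG1 replicate 1 (adjusted p = 0.111), NRG1 replicate 2 (0.055), untreated replicate 1 (0.122) or untreated replicate 3 (0.0798), and when every probe set was tested (0.0856), in a range from 0.00245 to 0.122 over 17 alternatives. Its dimmer probe set was at -0.16 (adjusted p = 0.231 over all probe sets).

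Kcna3, the Kv1.3 gene known from T lymphocytes, fell from 7.66, 7.61 and 7.72 to 7.42, 7.39 and 7.52, by 0.22 on the log2 scale with an SE of 0.064 (limma, adjusted p = 0.0349). The call ended without NRG1 replicate 1 (adjusted p = 0.109), NRG1 replicate 2 (0.119), untreated replicate 1 (0.0971) or untreated replicate 3 (0.106), with arrays centred on their medians (0.0595) and when every probe set was tested (0.0722), in a range from 0.00853 to 0.119 over 17 alternatives. Both falls were therefore near the threshold.

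Kcnd1, the Kv4.1 gene of fast inactivating currents, was at 6.72, 6.75 and 6.69 on the log2 scale with NRG1 and at 7.01, 6.88 and 7.00 without. The fall was 0.24 with an SE of 0.062 (limma, adjusted p = 0.0188). The call ended without NRG1 replicate 1 (adjusted p = 0.0557), NRG1 replicate 3 (0.0713), untreated replicate 1 (0.084) or untreated replicate 3 (0.0589), in a range from 0.00219 to 0.084 over 16 alternatives. Its relatives Kcnd2 (0.047) and Kcnd3 (-0.015) were not called, and neither were the Kv4 partner genes Kcnip1 to Kcnip4, which ranged from -0.091 to -0.016. Apart from Kcnd1, all of these were below the dimness gauge, and the NRG1 mean of Kcnd1, 6.72, lay almost on it.

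Kcnc2, the Kv3.2 gene of fast-spiking neurons, was dim, at 5.24, 5.56 and 5.22 with NRG1 and at 5.76, 5.59 and 5.66 without. NRG1 replicate 2 (5.56) came close to the lowest untreated value (5.59). The fall was 0.33 on the log2 scale with an SE of 0.094 (limma, adjusted p = 0.0318). The call ended without NRG1 replicate 1 (adjusted p = 0.108), NRG1 replicate 3 (0.115), untreated replicate 1 (0.117) or untreated replicate 3 (0.0751), after quantile normalization (0.0682) and when every probe set was tested (0.0918), in a range from 0.00308 to 0.117 over 14 alternatives.

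Among the uncalled voltage-gated genes, Kcnh2, which encodes the ERG channel of cardiac repolarization, was at 6.92, 7.33 and 7.19 with NRG1 and at 6.83, 6.53 and 6.98 without. The groups overlapped, and the difference was 0.37 ± 0.126 (SE; limma, adjusted p = 0.0669). It passed under 9 of 16 alternatives, which include quantile normalization (adjusted p = 0.0387) and the fits without NRG1 replicate 1 (0.021) and without untreated replicate 3 (0.0359), with adjusted p from 0.0192 to 0.198. Without untreated replicate 2 its difference was 0.24 (limma, adjusted p = 0.172). Kcnb2, a Kv2 gene, was at -0.25 (limma, adjusted p = 0.0765) and passed only without NRG1 replicate 2 (adjusted p = 0.0205). Its level was dim, with a 6-array mean of 5.54. Kcnh3 was at -0.18 and passed only without untreated replicate 2 (-0.30, limma adjusted p = 0.0342), against -0.11 without NRG1 replicate 1 (0.584) and -0.097 without untreated replicate 3 (0.619). The 3 Kv7 genes tested, Kcnq1 (-0.030), Kcnq3 (-0.044) and Kcnq5 (-0.13), were not called.

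Of 17 auxiliary subunits and regulators, Kcnab2 and Kcnmb4 rose and 15 were not called. Kcnab2 encodes a cytosolic beta subunit of Kv1 channels with an aldo-keto reductase fold. It was at 8.21, 8.17 and 8.24 on the log2 scale with NRG1 and at 7.68, 7.90 and 7.70 without. The NRG1 values lay close together above all untreated ones, and the rise was 0.44 ± 0.072 (SE), or 1.36-fold (limma, adjusted p = 0.00144). The other beta subunit genes, Kcnab1 (-0.094) and Kcnab3 (-0.019), were not called. Nphp4, which overlaps Kcnab2 by RefSeq, was at 0.015 (limma, adjusted p = 0.905). Kcne4, whose product inhibits Kv1 channels and others, was just past the threshold at -0.19 (limma, adjusted p = 0.05003). Its groups did not overlap, but it was dim, with a 6-array mean of 5.98. Of 15 alternatives 3 called it, with limma adjusted p from 0.0292 to 0.179.

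Potassium handling outside the channels was read from a list of 43 genes for pumps, cotransporters, exchangers and channel partners without a Kcn symbol. Of these, 37 were tested, 6 rose, 3 fell and 28 were not called, which is 24.3% called beside 20.9% of all genes. Above the dimness gauge were 20 of the 37, and 9 of the 20 were called (45%, beside 30.2% of all genes above it). None of the 17 at or below it was called, beside 7.18% of all genes there. The falls numbered 5 without untreated replicate 3. The median difference was -0.045 on the log2 scale, against -0.029 over all genes. The channel partners proper were not called: the sulfonylurea receptor genes Abcc8 (-0.11) and Abcc9 (-0.045), the Kv4 partner genes Dpp6 (-0.15) and Dpp10 (-0.13), 4 BK gamma subunit genes and the Kv2 partner gene Amigo1 (0.0058). The calls were all in genes for a pump beta subunit, pump regulators, cotransporters and exchangers. Atp1a4, the only sodium-potassium pump alpha subunit gene tested, was dim and not called (0.076; limma, adjusted p = 0.574).

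Slc12a2, which encodes the NKCC1 cotransporter that brings sodium, potassium and chloride into the cell, was at 8.96, 9.21 and 9.07 with NRG1 and at 7.64, 7.62 and 7.50 without. It rose 2.81-fold, by 1.49 ± 0.076 (SE; limma, adjusted p = 4.35e-07), with groups far apart. The K-Cl cotransporter genes, whose products carry potassium out, differed in direction: Slc12a7 fell by 0.51 (limma, adjusted p = 0.000224) and Slc12a4 rose by 0.30 (adjusted p = 0.0113). The Slc12a4 call ended without untreated replicate 1 (adjusted p = 0.0523), the highest value over 17 alternatives, of which the lowest was 0.000841. Atp1b2, a beta subunit gene of the sodium-potassium pump, was at 9.62, 9.63 and 9.62 with NRG1 and at 8.30, 8.35 and 8.42 without, a rise of 1.27 ± 0.060 (SE; limma, adjusted p = 2.37e-07). The other beta subunit genes, Atp1b1 (0.020) and Atp1b3 (-0.076), were not called. Fxyd5, from the family of small regulators of that pump, was at 9.63, 9.33 and 9.19 with NRG1 and at 7.86, 7.87 and 7.71 without, a rise of 1.57 ± 0.104 (SE; limma, adjusted p = 2.70e-06). Fxyd3 rose by 0.87 and Fxyd1 by 0.80 (limma, adjusted p = 7.30e-06 and 0.000616). Their relatives Fxyd2 (-0.13), Fxyd6 (-0.072) and Fxyd7 (-0.0028) were not called. For every called gene among these the groups did not overlap. Over the 37 tested, called or not, they did not overlap for 16, or 43.2%, beside 36.7% of all genes. Slc24a4 and Slc24a5 encode exchangers that move sodium against calcium and potassium, and Slc24a5 is known for its part in skin pigmentation. Slc24a4 was at 8.05, 7.85 and 8.06 with NRG1 and at 10.01, 10.15 and 10.02 without, and fell 4.20-fold (limma, adjusted p = 4.96e-08). Slc24a5 was at 10.17, 10.22 and 10.31 with NRG1 and at 11.59, 11.65 and 11.56 without, and fell 2.58-fold (limma, adjusted p = 2.15e-07).

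**Figure D4:**
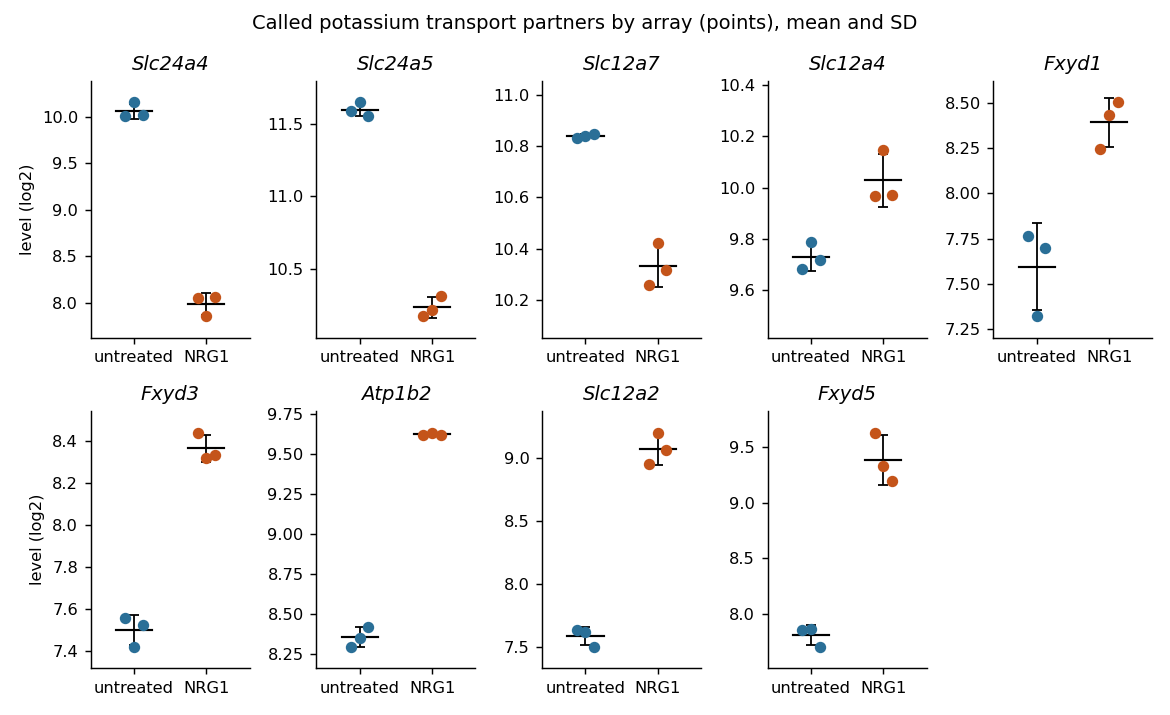
Level (log2) of the 9 called pump beta subunit, pump regulator, cotransporter and exchanger genes on each array. Untreated samples are in blue and NRG1 samples in orange. Horizontal lines are group means and bars are SD (n = 3 each). Axes differ between panels and do not start at 0; Slc24a4, Slc24a5 and Slc12a7 are lower with NRG1 and the other 6 are higher.

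Markers of other cell types were read beside these results. Of 6 neuron markers, which bear on the voltage-gated genes, 1 fell (Map2, -0.28) and 5, Map2 among them, were at or below the dimness gauge. Rbfox3 was above it and was not called (-0.094; limma, adjusted p = 0.336). The mean of the 6 ran from 5.84 to 5.93 with NRG1 and from 5.98 to 6.04 without. Of 3 Schwann cell and glia markers tested, 2 rose (Cdh19, 0.38, and Gfap, 0.24), with a mean of 8.08 to 8.18 against 7.82 to 7.96. Gfap was below the gauge, and Mbp was not called (0.011; limma, adjusted p = 0.939). Of 6 muscle markers 2 rose (Tnnt2, 1.12, and Actg2, 0.30), with a list median of -0.037, and 4, Actg2 among them, were at or below the gauge. Of 6 fibroblast markers 1 rose (Col1a1, 0.86), with a list median of -0.051, and 3 were at or below the gauge. Uncalled ones include Col1a2 (-0.27, limma adjusted p = 0.0551), Col3a1 (0.098) and the muscle marker Myh11 (-0.17, limma adjusted p = 0.0872). Of 5 macrophage and lymphocyte markers 1 rose (Cd68, 0.23), with a list median of -0.010, and 3 were at or below the gauge. None of 6 keratinocyte and 5 endothelium markers was called by limma, and all 11 were at or below the gauge. The part of these shifts in the channel results was not tested.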

How the data were processed

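The arrays held 35557 probe sets, and 6 arrays were compared, 3 per group. The authors' deposited values are log2 expression levels; per the submitters' processing notes, GCOS and RMA were used, with no version given. The values ran from 2.34 to 14.6, with array medians from 6.99 to 7.07; no background values were used here, so precision rests on the number of arrays. In the platform's annotation 21789 probe sets had 1 gene, 1621 had several and 12147 were unnamed here, and only those with 1 gene were used. The brightest probe set stood for a gene. NRG1 minus untreated was tested with limma 3.58.1 (lmFit, eBayes; R 4.3.3), using Benjamini-Hochberg adjustment over 19939 genes at 0.05, and the script was tested on simulated data. The members and lists were chosen with earlier results of these data known. Every called member and partner is named, as are uncalled members that an alternative called or that partner a called one; other uncalled members named as examples, and neighbours, were chosen after their values were seen. With 3 against 3 an exact permutation test cannot go below 0.1. Alternatives were other scalings, filters, probe set rules and fits, and leaving out each array; the dimness gauge and quantile normalization over the tested genes only were added after the data were seen.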

Additional observations from a re-analysis of the deposited data

How the results depend on the processing

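Alternatives, 17 in all, were followed gene by gene for the called channel and partner genes, the uncalled channel genes that an alternative called, and Kcnmb4os1; other genes named in the text were not followed. None of those followed changed direction. The level filters, the test of all probe sets, the fit with an intensity trend and the block leave a difference as it is. They therefore could not change a direction. The genes were followed mostly because they were called somewhere, so members with small differences are not covered. Of the 470 values of the genes followed, 418 stayed on their side of the threshold, 30 lost a call and 22 gained one. Of the 11 called channel genes, 6 (Kcnj13, Kcnk5, Kcnma1, Kcnn4, Kcnab2 and Kcna6) were called by every alternative that tested them and 5 lost the call under at least 1; 8 uncalled ones gained a call under at least 1. The count of 11 became 7 with genes under the median level left out, where 19 members were tested, 7 with all probe sets tested and 7 when replicate number was a block. Dropping 1 array at a time gave 6 to 12 channel genes, 8 to 11 of the partner genes and 3116 to 4397 of all genes. The block ended the calls of Kcnmb4, Kcna2, Kcna3 and Kcnc2 (limma, adjusted p = 0.0593, 0.0591, 0.0507 and 0.0556). Falls among the partner genes numbered 3, but 5 without untreated replicate 3, 5 with genes under the first quartile of mean level or those at or below the olfactory receptor level left out, and 7 with array weights. Replicate numbers did not pair the arrays (correlations of deviations -0.095, -0.164 and 0.0739), and the block called 3608 of all genes; the cause was not tested. No alternative background correction was run, since probe-level signals were not used here. Dim probe sets limit what small changes can be seen.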
